A study of Mus musculus with 8 samples.

Results

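The 10 genes described here mark the endothelium, the cell layer lining blood vessels, and were measured in mouse thymus: Pecam1, Cdh5, Kdr, Flt1, Tek, Tie1, Eng, Emcn, Plvap and Vwf. They were picked by symbol, and a gene was read from its single-gene probe set of highest mean over the 8 arrays. All 10 were found, each with 1 such probe set, among 19938 genes measured. The values are RMA log2 expression values, so a difference of 1 is a 2-fold change.

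Thymus lobes were taken from 4 spaceflight mice, which spent 13 days aboard the space shuttle (STS-118), and from 4 ground-control mice kept on Earth with similar housing in animal enclosure modules. All mice were C57BL/6NTac, 8 weeks old and matched in sex between the groups. A single array was hybridised per mouse, and the mice are numbered 1 to 4 within each group, as in the labels. The comparison asks how gene expression in this organ differs after flight.

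Endothelial cells hold vessels closed through junction proteins, sense growth factors of the VEGF and angiopoietin families through receptor tyrosine kinases, and present proteins to the blood that govern clotting and the passage of cells. In the thymus, vessels admit progenitors from the blood and let mature T cells leave. Vessels run in every tissue, so these genes mark a cell type and not an organ.

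Several arrays stood apart. In spaceflight mice 1 and 3 the log2 values had an interquartile range of 2.43, against 2.68 to 2.95 in the other 6 arrays. Of all genes, 22.9% were lowest and 19.0% highest in spaceflight mouse 1. In ground-control mouse 3, 14.8% were lowest and 19.1% highest, and in spaceflight mouse 3, 21.5% were lowest and 15.1% highest. Lung surfactant transcripts were also present in the array of ground-control mouse 3, given with their values after the endothelial genes. Thymocyte genes were high in all arrays, with a mean over 8 of them of 10.04 to 10.30 in spaceflight mice and 10.28 to 10.35 in ground-control mice.

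No endothelial gene passed the test between spaceflight and ground control. In limma's fit over 28943 probe sets, 0 of 10 were at a Benjamini-Hochberg adjusted p under 0.05 and 0 of 10 at an unadjusted p under 0.05. Over all 19938 genes, 0.0502% were called at the adjusted threshold, 0.01% higher and 0.0401% lower in spaceflight. At the unadjusted threshold 3.05% of all genes were higher and 7.0% lower in spaceflight. Mean levels were lower in spaceflight mice for 9 of the 10 genes, and for 10675 of all 19938 genes. Among the 9, the differences of Vwf (-0.0039) and Tie1 (-0.02) were the smallest. The median difference was -0.15 against -0.02 over all genes. The groups overlapped for each of the 10, where 6.01% of all genes had groups that did not overlap. In each of the 10 genes the highest of the 8 arrays was that of ground-control mouse 3, and in 6 the lowest was that of spaceflight mouse 1. In a bulk tissue sample, a different number of endothelial cells and a different amount of RNA per cell cannot be told apart.

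**Figure D1:**
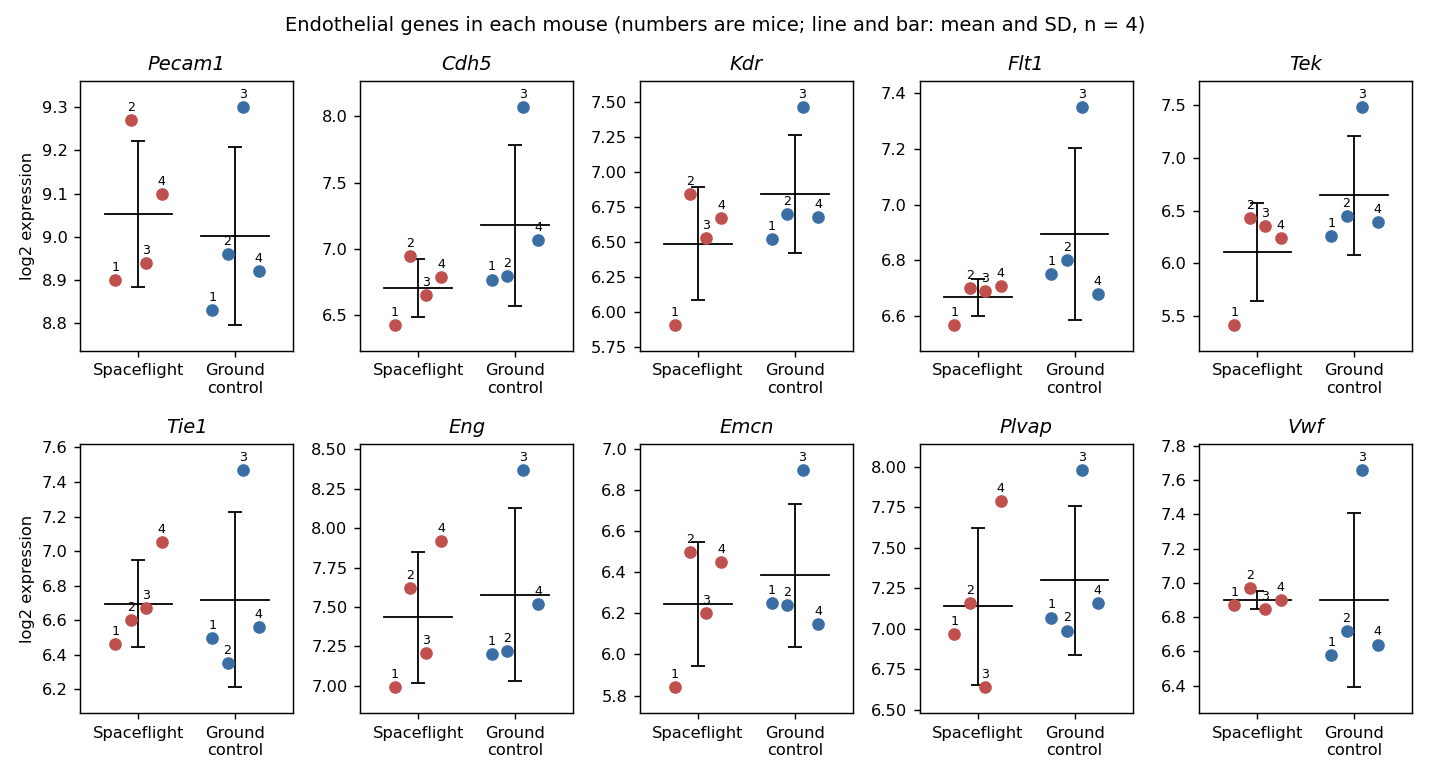
Log2 expression (vertical axes, a separate range for each gene) of the 10 endothelial genes in spaceflight (red) and ground-control (blue) mice; points are single mice with their number, and the line and bar are the mean and SD (n = 4 each). Ground-control mouse 3 is the highest point in every panel, and the other ground-control mice lie close together.

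The junction proteins came first. Pecam1 encodes CD31, an adhesion protein of endothelial junctions that platelets and leukocytes also carry. Its level was 8.90, 9.27, 8.94 and 9.10 in spaceflight mice 1 to 4, against 8.83, 8.96, 9.30 and 8.92 in ground-control mice 1 to 4. Spaceflight mouse 2 and ground-control mouse 3 were the high arrays, and no separation of the groups was visible. The difference was 0.05 ± 0.13 (spaceflight minus ground control ± SE, n = 4 each; limma adjusted p = 0.896), with a 95% interval of -0.25 to 0.34.

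Cdh5 encodes VE-cadherin, the cadherin that joins endothelial cells to each other. It measured 6.43, 6.95, 6.65 and 6.79 in spaceflight mice, against 6.77, 6.80, 8.07 and 7.07 in ground-control mice. One ground-control value stood 1.00 above the next highest array, while the other 3 lay inside or just above the spaceflight range. Cdh5 differed by -0.47 ± 0.26 (limma adjusted p = 0.517; 95% interval -1.06 to 0.11). Without ground-control mouse 3 the difference was -0.18 ± 0.15 (adjusted p = 0.859).

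Among receptors for VEGF, the growth factor that drives vessel growth, Kdr encodes VEGFR2, the main signalling receptor, and Flt1 encodes VEGFR1, which binds VEGF tightly and limits its supply to VEGFR2. Kdr read 5.91, 6.84, 6.53 and 6.67 in spaceflight mice, against 6.52, 6.70, 7.46 and 6.68 in ground-control mice. Spaceflight mouse 1 was low and ground-control mouse 3 high, and the 6 others lay between 6.52 and 6.84. The difference in Kdr was -0.35 ± 0.24 (limma adjusted p = 0.571; 95% interval -0.88 to 0.18).

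Flt1 varied little after flight, at 6.57, 6.70, 6.69 and 6.71 in spaceflight mice, against 6.75, 6.80, 7.35 and 6.68 in ground-control mice. The spread was 0.067 (SD) in spaceflight mice and 0.30 in ground-control mice, and ground-control mouse 3 was the value farthest from its group. Flt1 differed by -0.23 ± 0.15 (limma adjusted p = 0.547; 95% interval -0.55 to 0.09), and by -0.08 ± 0.11 without that mouse (adjusted p = 0.898).

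Tek and Tie1 are the angiopoietin receptor pair. Tek encodes Tie2, which binds angiopoietins and steadies vessels, and Tie1 is a related receptor that acts with it. Tek had the largest difference of the 10. Its level was 5.42, 6.43, 6.35 and 6.24 in spaceflight mice, against 6.26, 6.45, 7.48 and 6.39 in ground-control mice. Each group held 1 extreme value, low in spaceflight mouse 1 and high in ground-control mouse 3, and the other 6 arrays spanned 6.24 to 6.45. The difference was -0.53 ± 0.29 (limma adjusted p = 0.515; 95% interval -1.18 to 0.11). It was -0.25 ± 0.23 without ground-control mouse 3 and -0.025 ± 0.12 with both extreme mice left out (adjusted p = 0.861 and 0.998).

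Tie1 was at 6.46, 6.60, 6.67 and 7.05 in spaceflight mice, against 6.50, 6.35, 7.47 and 6.56 in ground-control mice. Its lowest value was in ground-control mouse 2, and its second highest was in spaceflight mouse 4. With all arrays the difference was -0.02 ± 0.23 (limma adjusted p = 0.972; 95% interval -0.54 to 0.49). Leaving out ground-control mouse 3 turned the sign, to 0.23 ± 0.15 (adjusted p = 0.858).

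Eng encodes endoglin, a co-receptor for ligands of the TGF-beta family that works with the receptor ALK1. Levels were 6.99, 7.62, 7.21 and 7.92 in spaceflight mice, against 7.20, 7.22, 8.37 and 7.52 in ground-control mice. Spread was wide in both groups (SD 0.41 in spaceflight and 0.55 in ground control), with mouse 4 highest in flight and mouse 3 highest on the ground. Eng differed by -0.14 ± 0.28 (limma adjusted p = 0.844; 95% interval -0.75 to 0.47).

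Emcn encodes endomucin, a sialomucin on the surface of capillary and venous endothelium. It was at 5.84, 6.50, 6.20 and 6.45 in spaceflight mice, against 6.25, 6.24, 6.90 and 6.15 in ground-control mice. Spaceflight mice 2 and 4 lay above the 3 lower ground-control mice, and spaceflight mouse 1 lay below them. The resulting difference was -0.13 ± 0.19 (limma adjusted p = 0.786; 95% interval -0.57 to 0.30).

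Plvap encodes the protein of the diaphragms that span fenestrae and caveolae. Its values were 6.97, 7.16, 6.64 and 7.79 in spaceflight mice, against 7.07, 6.99, 7.98 and 7.16 in ground-control mice. Spaceflight mouse 4 came second to ground-control mouse 3, and spaceflight mouse 3, not mouse 1, was lowest. The difference was -0.16 ± 0.27 (limma adjusted p = 0.82; 95% interval -0.75 to 0.44).

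Vwf encodes von Willebrand factor, a clotting glycoprotein that endothelial cells store and release and that megakaryocytes also make. It was even across the flown animals, at 6.87, 6.97, 6.85 and 6.90, against 6.58, 6.72, 7.66 and 6.64 in ground-control mice. All 4 spaceflight values lay above 3 of the ground-control values and below the remaining one. The group means were both 6.90, with an SD of 0.053 in spaceflight and 0.51 in ground control, and the difference was -0.0039 ± 0.21 (limma adjusted p = 0.996; 95% interval -0.48 to 0.47). Without ground-control mouse 3 it was 0.25 ± 0.11, with an unadjusted p of 0.0406 and an adjusted p of 0.858 in limma's fit.

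Ground-control mouse 3 set the spread of its group. It exceeded the mean of the other 3 ground-control mice by 0.40 (Pecam1) to 1.19 (Cdh5), with a median of 0.96 over the 10 genes against -0.00 over all genes. The median SD was 0.28 in spaceflight and 0.48 in ground control, and it was 0.09 among the 3 ground-control mice that remained without mouse 3. Over all genes the same medians were 0.21, 0.14 and 0.12. Ground control had the larger SD in 9 of 10 endothelial genes and in 25.4% of all genes. Without mouse 3, that held for 1 of the 10 and for 4140 of all 19938 genes.

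Spaceflight mouse 1 lay below the mean of the other 3 flown mice for each gene, by amounts that differed between genes. The gap was -0.92 for Tek, -0.77 for Kdr, -0.59 for Eng and -0.54 for Emcn, and -0.04 for Vwf. With both this mouse and ground-control mouse 3 left out, a choice made after seeing the data, 7 genes had a higher mean in spaceflight and 3 a lower one. The median difference was then 0.15, and 0 of 10 passed (limma adjusted p = 0.998 for each). Vwf was at 0.26 ± 0.11, Tie1 at 0.31 ± 0.15, Eng at 0.27 ± 0.19, Kdr at 0.05 ± 0.13 and Cdh5 at -0.085 ± 0.14. Leaving out ground-control mouse 3 alone gave 6 higher and 4 lower means and a median of 0.052.

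**Figure D2:**
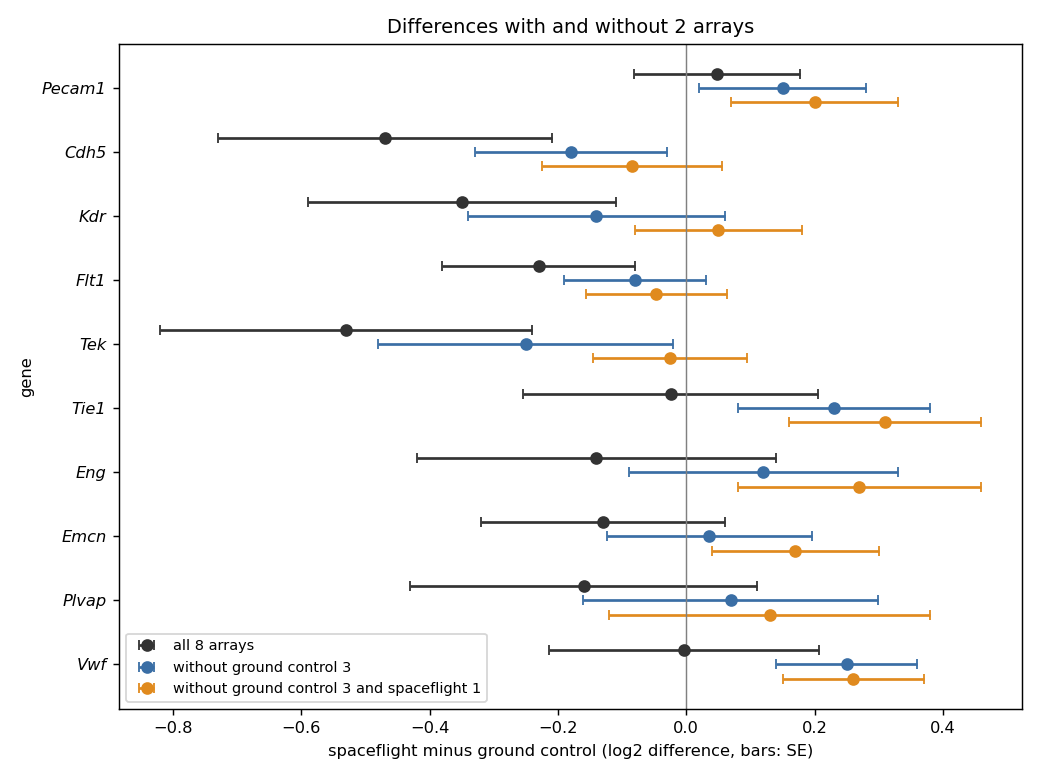
Spaceflight minus ground control (log2 difference, horizontal axis; bars are the SE of limma's fit) for the 10 genes with all 8 arrays, without ground-control mouse 3, and without that mouse and spaceflight mouse 1. The points move to the right as the arrays are left out, from -0.53 to -0.025 for Tek, and 7 of the 10 lie above 0 without both.

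Promoters are shown because ETS factors such as Erg and Fli1 are known to bind endothelial promoters. Any part of these factors in the array values was not tested. The RefSeq promoter table (GRCm38.p6) held 6 of the 10: Emcn, Eng, Flt1, Kdr, Tek and Tie1. In the 250 bases before the listed start, the ETS-type motif CNGGAA was searched on both strands, with no other motif searched. Stretches of GGAA outside this motif were not counted, and some remain in lower case in the sequences below, also in Eng. It occurred in 5 of the 6, with 3 matches in Tie1, 2 each in Emcn, Kdr and Tek, 1 in Flt1 and 0 in Eng. For Kdr and Flt1 all 250 bases lay inside the RefSeq gene, and for Tek 203 did. Matches in these windows are therefore not counted as upstream of the gene. Of all 32851 promoters in the table, 54.2% held it. The stretches lying outside the RefSeq gene are given 5′ to 3′ on the gene's strand, with matches on either strand in capitals. They are chr4:118489850-118490099 (minus strand) for Tie1, chr3:137340828-137341061 (plus strand) for Emcn and chr2:32646345-32646594 (plus strand) for Eng, a member without a match.
Tie1 promoter: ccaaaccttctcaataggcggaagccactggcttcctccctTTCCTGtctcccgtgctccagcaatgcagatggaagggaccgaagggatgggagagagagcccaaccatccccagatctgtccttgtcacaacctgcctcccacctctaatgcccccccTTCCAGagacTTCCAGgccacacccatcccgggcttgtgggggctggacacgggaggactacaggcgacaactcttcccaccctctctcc
Emcn promoter: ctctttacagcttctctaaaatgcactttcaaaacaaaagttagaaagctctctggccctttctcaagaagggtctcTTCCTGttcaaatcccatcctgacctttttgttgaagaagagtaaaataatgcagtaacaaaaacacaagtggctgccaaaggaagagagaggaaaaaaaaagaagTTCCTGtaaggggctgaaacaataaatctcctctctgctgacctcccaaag
Eng promoter: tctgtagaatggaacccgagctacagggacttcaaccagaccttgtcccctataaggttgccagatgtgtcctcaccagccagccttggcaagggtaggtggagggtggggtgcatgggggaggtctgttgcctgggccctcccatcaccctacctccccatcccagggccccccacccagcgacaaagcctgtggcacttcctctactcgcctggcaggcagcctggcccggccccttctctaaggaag

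Ligands and partners of these receptors showed no called change. Of 12 measured genes in this list, 0 passed (limma, adjusted) and 2 had an unadjusted p under 0.05, both with lower means in spaceflight, where 7.0% of all genes did. The median difference was -0.12, and it ran from -0.18 (without ground-control mouse 1) to -0.056 (without spaceflight mouse 1) with 1 mouse left out. Nrp2, a co-receptor for VEGF and semaphorins, was at 6.02 to 6.52 in spaceflight and 6.60 to 7.14 in ground control, without overlap (difference -0.45 ± 0.15, adjusted p = 0.44). Vegfb, a ligand of VEGFR1, was at 7.79 to 7.92 in spaceflight and 8.00 to 8.35 in ground control, also without overlap (-0.30 ± 0.11, adjusted p = 0.445). Vegfa, the main ligand of VEGFR2, differed by -0.39 ± 0.19 (adjusted p = 0.504), with spaceflight mouse 1 lowest at 6.54 and ground-control mouse 3 highest at 7.83. Angpt2, the angiopoietin that loosens vessels, differed by 0.20 ± 0.16 (adjusted p = 0.623).

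Other junction and surface proteins of endothelium formed a list of 15. Of these, 0 passed (limma) and 1 was lower in spaceflight at an unadjusted p under 0.05, as were 7.0% of all genes. Means were lower in spaceflight for 14, and for 10675 of all 19938 genes. The median difference was -0.16. That median was -0.023 without ground-control mouse 3, -0.081 without spaceflight mouse 1 and -0.27 without spaceflight mouse 2 or ground-control mouse 1. Ground-control mouse 3 was the highest array for 13 of the 15 and spaceflight mouse 1 the lowest for 10. F11r, the junctional adhesion molecule JAM-A, which epithelial cells also carry, differed by -0.47 ± 0.20 (adjusted p = 0.485). Mcam, the adhesion molecule CD146 shared with pericytes, differed by -0.44 ± 0.20, Jam2 by -0.30 ± 0.18 and the surface receptor Cd93 by -0.29 ± 0.24 (adjusted p = 0.491, 0.529 and 0.63).

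For 16 transcription factors of the endothelium the median difference was 0.01 (-0.047 to 0.058 with 1 mouse left out), with 8 higher and 8 lower means and 0 at an unadjusted p under 0.05. Lmo2 (-0.32 ± 0.15), Klf4 (-0.33 ± 0.18), Lyl1 (0.18 ± 0.12) and Foxc2 (-0.13 ± 0.10) had the smallest p in the list (limma adjusted p from 0.497 to 0.621). Several of these factors are also used by blood cells. Ground-control mouse 3 exceeded the mean of its group mates by a median of 0.13 over these genes.

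The endoglin pathway held 19 measured genes, of which 17 had lower means in spaceflight, as did 10675 of all 19938 genes. The pathway's median was -0.12 (-0.055 without ground-control mouse 3), with 0 at an unadjusted p under 0.05. Id2, a target of this pathway, differed by -0.33 ± 0.18, the ligand Tgfb1 by -0.22 ± 0.14, the inhibitor Smad7 by -0.27 ± 0.17 and the signal transducer Smad5 by -0.13 ± 0.10 (limma adjusted p from 0.514 to 0.586).

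Genes that guide cells through vessel walls included the smallest p among the process lists. S1pr3, a receptor for sphingosine 1-phosphate on vessels, was at 5.59, 6.34, 5.97 and 6.28 in spaceflight mice, against 6.61, 7.04, 6.93 and 6.87 in ground-control mice. The groups did not overlap, and ground-control mouse 3 was not the highest. S1pr3 differed by -0.81 ± 0.17, with an unadjusted p of 0.000699 and an adjusted p of 0.21 in limma's fit. Icam1, an adhesion molecule for leukocytes, differed by -0.50 ± 0.16, the lymphotoxin receptor Ltbr by -0.35 ± 0.18 and the addressin Madcam1 by 0.20 ± 0.12 (adjusted p = 0.428, 0.508 and 0.531). Over 13 measured genes the median was -0.04 (-0.1 to 0.053 with 1 mouse left out), with 0 passing and 2 at an unadjusted p under 0.05. Both of the latter were lower in spaceflight, as were 7.0% of all genes at that threshold.

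In vascular tone and clotting, 0 of 12 passed and the median was -0.16, or -0.039 without ground-control mouse 3 and -0.06 without spaceflight mouse 1. F8, clotting factor VIII, which circulates bound to von Willebrand factor, was at 5.87 to 6.16 in spaceflight and 5.56 to 5.91 in ground control (0.29 ± 0.11; limma adjusted p = 0.462). Thbd, the anticoagulant receptor thrombomodulin, was at 5.89 to 6.51 in spaceflight mice, against 6.44 to 6.56 in ground-control mice 1, 2 and 4 and 7.77 in mouse 3 (-0.56 ± 0.28; adjusted p = 0.502). Plat, tissue plasminogen activator, differed by -0.25 ± 0.13, and the endothelin receptor Ednrb by -0.26 ± 0.14 (adjusted p = 0.502 and 0.516).

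Capillary metabolism genes had a median of -0.24 over 15 measured, with 0 passing. At an unadjusted limma p under 0.05, 2 were higher and 1 lower in spaceflight. Of all genes, 3.05% were higher and 7.0% lower. Without spaceflight mouse 1 the median was -0.033, and without ground-control mouse 3 it was -0.14. Gpihbp1, which anchors lipoprotein lipase on capillary endothelium, was at 6.31, 6.34, 6.45 and 6.74 in spaceflight mice, against 6.11, 6.10, 6.15 and 5.94 in ground-control mice. Every flown mouse was above every ground-control mouse, opposite in sign to most of the list, and the difference was 0.39 ± 0.12 (limma adjusted p = 0.408). Mfsd2a, a lipid transporter, differed by 0.53 ± 0.19, Cavin1, a coat protein of caveolae, by -0.60 ± 0.24, and the transferrin receptor Tfrc, which dividing thymocytes also express, by -0.33 ± 0.16 (adjusted p = 0.456, 0.465 and 0.504).

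By vessel type, arterial genes had a median of -0.30 over 9 measured, venous genes -0.11 over 6 and lymphatic genes 0.04 over 6, and 0 passed in each (limma). At an unadjusted p under 0.05, 2 arterial genes were lower in spaceflight, and 1 lymphatic gene was lower and 1 higher. Of all genes, 7.0% were lower and 3.05% higher at that threshold. The arterial median was -0.11 without spaceflight mouse 1 and -0.19 without ground-control mouse 3. With 1 mouse left out, the venous median ran from -0.15 to 0.011 and the lymphatic median from -0.067 to 0.18. Efnb2, the ephrin of arteries, was at 6.47 to 6.71 in spaceflight and 6.76 to 7.33 in ground control (-0.38 ± 0.14; adjusted p = 0.46). The Notch targets Hey1 and Hey2 differed by -0.45 ± 0.19 and -0.30 ± 0.14, and the connexin Gja5 by -0.43 ± 0.22 (adjusted p from 0.481 to 0.504). Among venous genes, Ephb4, the receptor for that ephrin, differed by -0.21 ± 0.19, Nr2f2 by -0.19 ± 0.20, Lrg1 by -0.17 ± 0.29 and Ackr1 by 0.08 ± 0.15. Of the lymphatic list, Pdpn, which thymic epithelium and fibroblasts also express, was at 6.59 to 6.87 in spaceflight and 6.98 to 7.66 in ground control (-0.57 ± 0.15; adjusted p = 0.366). Reln (0.23 ± 0.10), Flt4, the receptor VEGFR3 (0.08 ± 0.15), and Lyve1 (0.13 ± 0.35) were the others named by the same rule.

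Markers of fibroblasts, fat cells, muscle, pericytes, macrophages and dendritic cells, and red cells were also low in spaceflight mouse 1 and high in ground-control mouse 3. Several of these lists differed from the endothelial genes elsewhere. Relative to each gene's mean over the 8 arrays, the 10 endothelial genes averaged -0.41 in spaceflight mouse 1 and 0.76 in ground-control mouse 3. The same measure was -0.78 and 0.60 for 9 fibroblast genes, -0.91 and 0.54 for 9 fat cell genes, and -1.06 and 0.62 for 13 muscle genes. For 13 genes of pericytes and smooth muscle, the cells that wrap vessels, it was -0.51 and 0.39, and for 6 platelet genes -0.13 and 0.14. For 10 macrophage and dendritic cell genes it was -0.56 and 0.29, with spaceflight mouse 1 the lowest array for 9. The 3 red cell genes averaged -0.34 and 0.43, and 9 thymic epithelium genes -0.29 and 0.25. Thymocyte genes were near their mean in both mice (-0.03 and 0.05). In spaceflight mice 3 and 4, the endothelial genes averaged -0.17 and 0.12, against 0.44 and -0.31 for muscle, 0.09 and -0.02 for pericytes and smooth muscle, and 0.19 and -0.05 for platelets. Fibroblast genes (-0.03 and 0.18) and macrophage and dendritic cell genes (-0.36 and 0.32) had the same signs as the endothelial genes there. Fat cell genes were at 0.0 and 0.02. The part of these cells in the endothelial values was not tested.

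**Figure D3:**
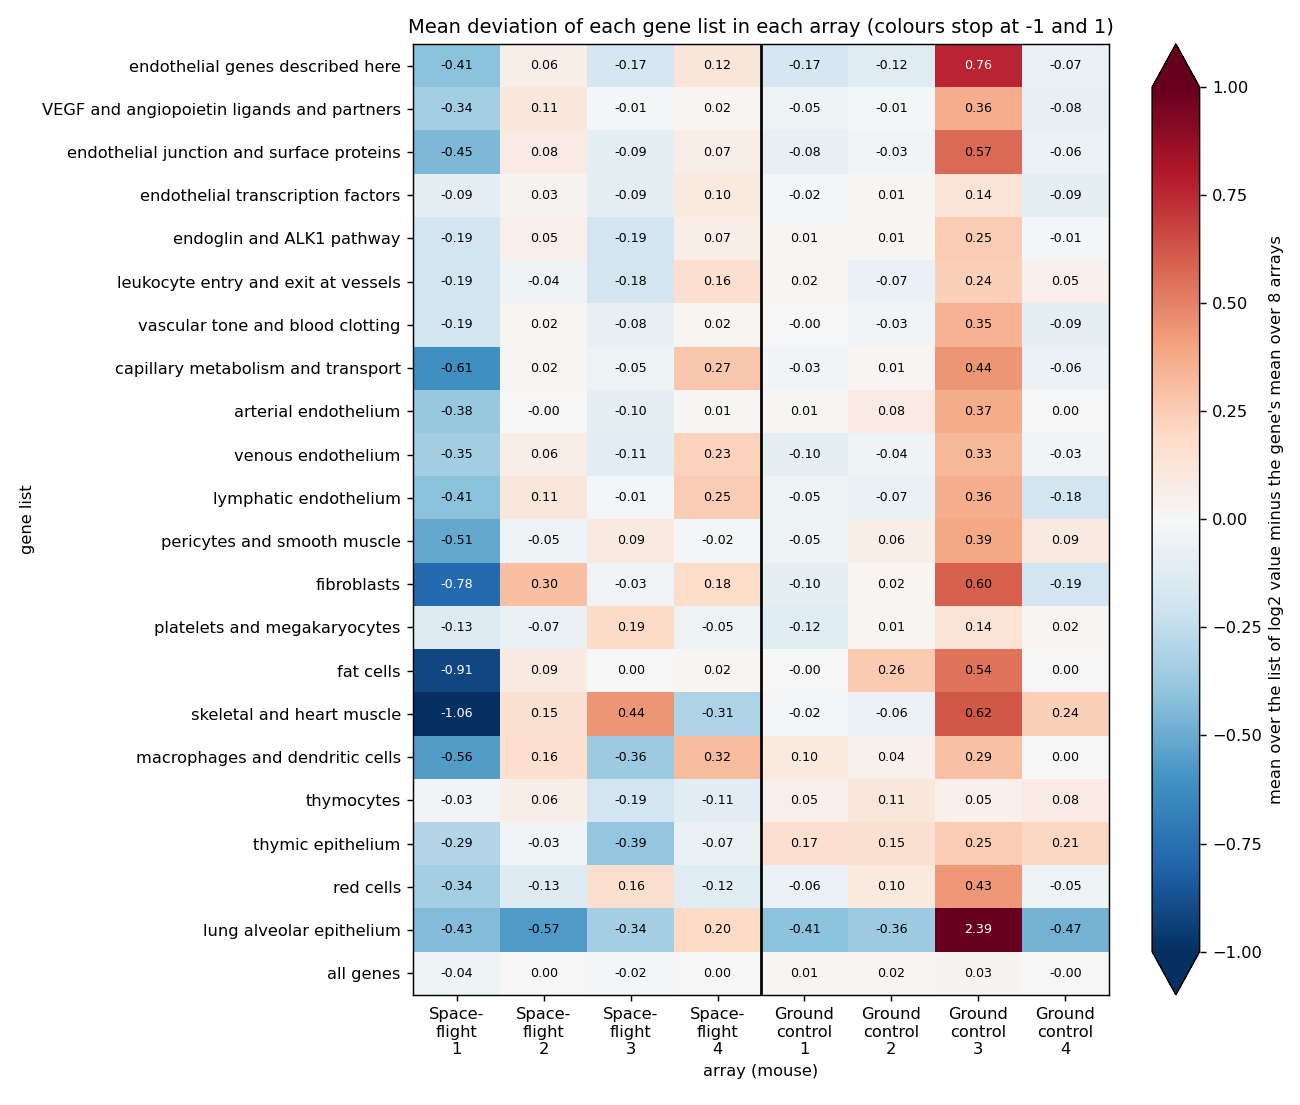
Mean deviation of each gene list (rows) in each array (columns): log2 value minus the gene's mean over 8 arrays, averaged over the list, with blue low, red high and colours ending at -1 and 1. Spaceflight mouse 1 is low for fat (-0.91) and muscle (-1.06), and ground-control mouse 3 is high for endothelial (0.76) and lung alveolar (2.39) genes.

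Between the groups, 0 of 13 pericyte and smooth muscle genes passed, with a median of -0.13 (-0.017 without ground-control mouse 3 and -0.032 without spaceflight mouse 1). Cnn1, a calponin of smooth muscle, was at 5.85 to 6.32 in spaceflight and 6.65 to 6.84 in ground control (-0.64 ± 0.13; unadjusted p = 0.000483, adjusted p = 0.194 in limma's fit). Acta2, smooth muscle actin, differed by -1.05 ± 0.41, Des by -0.92 ± 0.43 and Pdgfb, an endothelial signal to pericytes, by -0.25 ± 0.14 (adjusted p = 0.462, 0.497 and 0.521). The medians were -0.09 for fibroblasts, 0.13 for platelets, -0.60 for fat cells, -0.40 for muscle and -0.22 for macrophages and dendritic cells. They were -0.15 for thymocytes, -0.46 for thymic epithelium and -0.07 for the 3 red cell genes measured, and 0 genes passed in any of these lists. Without spaceflight mouse 1 the medians were -0.18 for fat cells, -0.13 for muscle, -0.076 for macrophages and dendritic cells and 0.042 for fibroblasts. With 1 mouse left out, the ranges were -0.25 to 0.059 for fibroblasts, 0.027 to 0.2 for platelets, -0.18 to 0.0068 for red cells, -0.2 to -0.11 for thymocytes and -0.55 to -0.34 for thymic epithelium. The lowest limma adjusted p among them was 0.142, for Foxn1 of the thymic epithelium (-0.63 ± 0.12). In that list 5 of 9 genes were lower in spaceflight at an unadjusted p under 0.05, as were 7.0% of all genes. So were 4 of 9 fat cell genes and 2 of 13 pericyte and smooth muscle genes. The count was 1 of 13 for muscle, 1 of 8 for thymocytes and 0 of 10 for the endothelial genes.

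Genes of the lung alveolus separated ground-control mouse 3 from every other array. Sftpc, a surfactant protein made by type II alveolar cells, was at 5.38, 5.07, 5.77 and 8.76 in spaceflight mice, against 5.88, 5.18, 11.73 and 5.32 in ground-control mice. Ground-control mouse 3 was by far the highest, and spaceflight mouse 4 came next. Sftpb was at 5.40 to 5.75 in spaceflight mice, against 5.27 to 5.44 in ground-control mice 1, 2 and 4 and 8.21 in mouse 3. Slc34a2, a phosphate transporter of type II cells, was at 5.19 to 5.85 in spaceflight mice, against 5.40 to 5.51 in those 3 mice and 9.24 in mouse 3. Ager, a marker of type I cells, was at 6.41 to 7.10 in spaceflight mice, against 6.44 to 6.63 and 8.73.

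The list of 10 alveolar genes was drawn up after these data had been seen. Ground-control mouse 3 was the highest array for 10 of 10, by 0.55 to 6.27 over the mean of its group mates. The list's mean level ran from 5.63 to 6.40 in spaceflight mice and from 5.73 to 8.59 in ground-control mice. Its median difference was -0.55 with all arrays and 0.033 without ground-control mouse 3. Spaceflight mouse 4 had the second highest mean of both the alveolar (6.40) and the endothelial genes (7.16). Among single alveolar genes it was second highest for Sftpc (8.76), Sftpb, Slc34a2, Cldn18 and Napsa. For Sftpa1, Sftpd, Lamp3, Ager and Abca3 it was not. Spaceflight mouse 2 was close to mouse 4 for the endothelial genes (7.10) but had the lowest alveolar mean of all arrays (5.63). The part of lung RNA in the endothelial values was not tested, and the endothelial differences without ground-control mouse 3 are those given above.

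**Figure D4:**
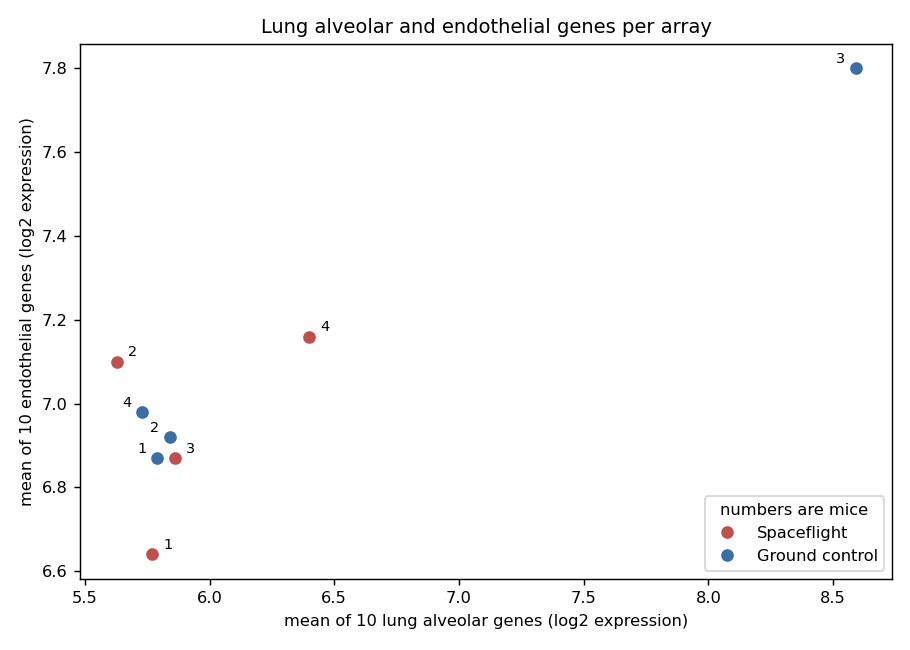
Mean log2 expression of the 10 endothelial genes (vertical axis) against that of 10 lung alveolar genes (horizontal axis); each point is a mouse with its number, spaceflight in red and ground control in blue. Ground-control mouse 3 stands alone at 8.59 and 7.80, and spaceflight mouse 4 follows at 6.40 and 7.16. Spaceflight mouse 2, lowest for the alveolar genes, is at 5.63 and 7.10.

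Genes with the most similar pattern were ranked by Pearson's r over the 8 arrays with the mean of the 10 genes, each centred on its own mean. The closest of 19928 genes was Esam, an adhesion molecule of endothelial junctions and platelets (r = 0.988, n = 8 arrays). It was followed by Gmppa, Vnn1, Naif1, Fgfr1, Fam189a2, Slc9a3r2, Tlcd4, Bcam and Limch1, with r from 0.984 to 0.972. These points share 8 arrays and rest in part on ground-control mouse 3 and spaceflight mouse 1, the arrays farthest from the median. Without both, r over 6 arrays was 0.97 for Esam and ranged from 0.674 to 0.947 for the other 9. Esam differed by -0.16 between spaceflight and ground control (limma adjusted p = 0.766), and ground-control mouse 3 exceeded its group mates by 0.88.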

How the data were processed

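The deposited table holds log2 expression values of 8 Affymetrix arrays, 1 per mouse. Per the submitters' processing notes the authors used RMA and limma; versions, genome build and filters are not given in the sources used here. Total RNA was extracted with Trizol, per the labels' protocols. Values ran from 1.72 to 14.03.

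The lowest unbroken run of identifiers (6614 of 35557 probe sets), which carries no gene name, was left out as likely controls. Of 28943 probe sets tested, 21789 had 1 gene in the platform annotation, 1621 several and 5533 none; symbols were updated through RefSeq (GRCm38.p6; 21698 matched). Spaceflight minus ground control was fitted in R 4.3.3 with limma 3.58.1 (lmFit, eBayes, two-sided, all 8 arrays, no block), with Benjamini-Hochberg adjustment over all 28943 and a threshold of 0.05. The number of arrays limits the precision. On simulated data for this comparison (28943 probe sets, 200 changed) the fit recovered 20% of changes of 0.5, 78% of changes of 1 and 98% of changes of 1.5, with 4 false calls among 150. The changed genes were drawn from all genes and the noise was independent between genes. With 150 calls against 10 genes called in the real data, the adjustment was also milder. These shares therefore do not carry over to the 10 endothelial genes. Their median SDs were 0.28 (spaceflight) and 0.48 (ground control), against 0.21 and 0.14 over all genes.

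The 10 genes and 19 other lists (7 processes, 12 cell types) were chosen with earlier results of these data known, and an alveolar list was added after seeing the values. Named are the 10 genes, up to 4 genes of smallest p per list (all where at most 5 were measured) and the 10 most similar genes. Every alveolar gene was chosen after its values were seen. Alternatives were other scalings, array weights, left-out arrays, a replicate block, other sets of features and a variance trend.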

Additional observations from a re-analysis of the deposited data

Results flagged for a closer look

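A value is listed here when the gap between a group's highest or lowest mouse and the nearest of the other 3, divided by the group's whole range, was above 0.829. Of 232 groups checked (a gene or list mean in 4 mice), 34 were listed. Chance flags about 1 in 20 independent groups, but that is no valid yardstick here: the genes share the same 8 arrays, many were named for a small p, and 9 of the 34 come from the alveolar list, chosen after its values were seen. The isolated mouse was ground-control mouse 3, on the high side, in 27 and spaceflight mouse 1, on the low side, in 7.

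Among the 10 endothelial genes, ground-control mouse 3 stood apart for Tek (0.842), Emcn (0.873), Plvap (0.835) and Vwf (0.875), and for the mean of the 10 (0.887). Spaceflight mouse 1 stood apart for Flt1 (0.84). In the other vessel lists, ground-control mouse 3 was isolated for F11r (0.871), Thbd (0.904), Gja5 (0.908) and Flt4 (0.838). It was also isolated for the list means of VEGF and angiopoietin partners (0.849), junction and surface proteins (0.924), the endoglin pathway (0.92), capillary metabolism (0.859) and venous endothelium (0.831). Spaceflight mouse 1 was isolated for Vegfa (0.906) and Klf4 (0.885).

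In lists of other cells, ground-control mouse 3 was isolated for the fibroblast genes Col3a1 (0.883), Dpt (0.841) and Col1a1 (0.842) and for Csf1r of macrophages (0.921). Spaceflight mouse 1 was isolated for Des (0.846), Dpt (0.902), Plin1 (0.843) and the mean of fat cell genes (0.913). For the lung alveolar genes, ground-control mouse 3 was isolated for Sftpc (0.893), Sftpb (0.944), Sftpd (0.842), Slc34a2 (0.973), Lamp3 (0.935), Cldn18 (0.947), Ager (0.915) and Abca3 (0.882), and for their mean (0.959).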

How the results depend on the processing

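No endothelial gene passed under any alternative that was run, and Cdh5, Flt1 and Tek kept a negative difference in each. Limits are the 4 mice per group and the reliance of ground control's spread on mouse 3; the cause of the changes below was not tested. Scaling each array to its 75th percentile gave 0.054 for Tie1, 0.075 for Vwf and 0.0073 for Slc4a1. Repeated quantile normalization gave 0.029 for Tie1, 0.058 for Vwf and -0.031 for Ackr1. Array weights gave 0.081 for Tie1, 0.11 for Vwf and 0.013 for Eng.

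Without spaceflight arrays 1 and 3, differences were 0.11 (Tie1), 0.091 (Emcn), 0.18 (Plvap), 0.035 (Vwf), 0.19 (Eng), 0.00093 (Smad7), 0.26 (Lrg1), 0.071 (Dpt), 0.21 (C1qa) and 0.13 (Csf1r). List medians were then 0.12 (venous), -0.06 (platelets), -0.13 (fat), 0.16 (macrophages and dendritic cells) and -0.22 (thymic epithelium). Without spaceflight mouse 1 and ground-control mouse 3 together, an alternative added after seeing the data, differences were 0.05 (Kdr), 0.31 (Tie1), 0.17 (Emcn), 0.13 (Plvap), 0.26 (Vwf), 0.27 (Eng), 0.046 (Cd93), 0.08 (Ephb4), 0.13 (Nr2f2), 0.17 (Lrg1), 0.22 (Dpt), 0.11 (Col1a1) and 0.028 (Ckm). List medians were 0.038 (vascular tone and clotting), 0.082 (capillary), 0.15 (venous) and -0.043 (fat), and the median SD of the 10 genes in ground control was 0.09.

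Leaving out 1 mouse at a time, Pecam1 ranged from -0.024 to 0.15, Cdh5 from -0.61 to -0.18, Kdr from -0.47 to -0.14, Flt1 from -0.3 to -0.08, Tek from -0.66 to -0.25, Tie1 from -0.15 to 0.23, Emcn from -0.22 to 0.036, Plvap from -0.37 to 0.069, Vwf from -0.11 to 0.25 and Eng from -0.3 to 0.12. The median of the 10 ranged from -0.27 to 0.052, its ground-control SD from 0.09 to 0.57, the arterial median from -0.39 to -0.11 and the fat median from -0.7 to -0.18. Among other genes, Lrg1 ranged from -0.48 to 0.028, Ackr1 from -0.043 to 0.16, Flt4 from -0.01 to 0.21, Lyve1 from -0.078 to 0.44, Dpt from -0.69 to 0.042, Col1a1 from -0.29 to 0.059 and Slc4a1 from -0.18 to 0.0068.

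The count of all genes passing was 10. It was 3 with the 75th percentile, 6 without spaceflight arrays 1 and 3, 2 without spaceflight mouse 1 and ground-control mouse 3, 16 with genes fitted alone or with the mean of a gene's probe sets, 5 with the unnamed run kept, and 2 to 9 with 1 mouse left out. Deviations of mice with the same number correlated at 0.25, -0.4, -0.29 and 0.096, and 2 of 8 samples correlated best with their own number. With the replicate block, 0 genes passed (1700 at an unadjusted p under 0.05), and Tek had an unadjusted p of 0.0307 (limma adjusted p = 0.58).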

Other observations

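Spaceflight mouse 4 was the highest of the 8 arrays for Angpt2, Lrg1, Ackr1 and C1qa, which were picked after their values were seen. Among the genes named from other lists, Lmo2, F8, Gpihbp1, Mfsd2a and Epor were also highest in that mouse. Angpt2 was at 5.48 there, against 4.87 to 5.07 in the other spaceflight mice and 4.60 to 5.13 in ground-control mice. Lrg1, a secreted glycoprotein of venules, was at 7.11, against 5.60 to 6.11 in the other spaceflight mice and 6.14 to 6.76 in ground-control mice. Ackr1, a chemokine-binding receptor of venules, was at 5.11, against 4.51 to 4.83 and 4.55 to 4.86. The complement gene C1qa was at 9.44, against 7.66 to 8.85 and 8.74 to 9.10. Other named genes of the same lists were highest in ground-control mouse 3 instead. They were the venous genes Ephb4 (6.62 in spaceflight mouse 4, against 7.19 in ground-control mouse 3) and Nr2f2 (6.66 in spaceflight mouse 4, against 7.27). The same held for Nrp2, Vegfb and Vegfa, listed with Angpt2, and for the macrophage and dendritic cell genes Adgre1, Itgax and Csf1r. The group differences of all these genes include spaceflight mouse 4, and that of Ackr1 was -0.043 without it.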
